A study of Mus musculus with 15 samples.

Results

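The Pde4 family was examined through all of its annotated promoters in a map of nucleosome positions, which gives 9 of 25881 transcription start sites (TSSs). They were found by matching the RefSeq identifier of each annotated TSS to the symbols Pde4a, Pde4b, Pde4c and Pde4d. Pde4b has 5 annotated TSSs, Pde4a has 2, and Pde4c and Pde4d have 1 each. The promoters of one gene are numbered here from the most upstream TSS, so that Pde4b P5 (RefSeq NM_001177981) is the most downstream of the 5. Of the 9 promoters, 6 passed the coverage minimum, a score above 100 in the authors' promoter annotation (the fragments near the TSS, averaged over non-stimulated DC and fibroblast sets), as did 13559 promoters in all. The other 3 (Pde4b P1, Pde4b P2 and Pde4d, with scores of 55, 59.5 and 47.5) are described but enter no test. Pde4b was chosen by its measured values, a rise at pol-II S5P alleles over H3K4me1, so that its values at these alleles are a description. Of its promoters, only P5 had both a higher patterning level and a lower NDR ratio there than in the pooled TNF-α-stimulated H3K4me1 set. At P1 to P4 the log2 NDR ratio was higher there than in that set, by 2.53, 2.73, 3.11 and 0.48, and at P1 the patterning level was lower.

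The assay was ChIP-MNase. Chromatin in pieces of several kilobases is bound by an antibody and then cut on the beads with micrococcal nuclease, and the DNA that nucleosomes protect is sequenced. The cells were mouse dendritic cells (DCs), derived in culture from bone marrow progenitor lines, and 3T3 fibroblasts, an immortalised line. DCs were non-stimulated or had received LPS at 100 ng/ml for 1 h, and fibroblasts were non-stimulated or had received TNF-α at 5 ng/ml for 1 h, all assayed with an H3K4me1 antibody and each deposited as 1 set with 2 replicates pooled. Control and BAF-knockdown fibroblasts, the latter stably transduced with 1 shRNA against both catalytic subunits of the BAF remodelling complex (Brm and Brg1) and sorted for high GFP, gave 2 H3K4me1 libraries each without and with TNF-α. TNF-α-stimulated fibroblasts without knockdown were also assayed with antibodies against RNA polymerase II phosphorylated at serine 7 (S7P, 2 libraries) or serine 5 (S5P, 1 deposited set). The study lists replicates for S5P, and the labels do not give whether this set pools them, so it is treated as 1 library. H3K4me1 enriches regulatory regions whether or not they are being transcribed, whereas the pol-II antibodies enrich alleles that carry polymerase. In the authors' expression values, 9 of 10 DC marker genes were above the threshold for active promoters in DCs (all but Flt3) and 10 of 10 fibroblast markers were above it in fibroblasts. Conversely, 3 of 10 fibroblast markers were above it in DCs and 1 of 10 DC markers in fibroblasts.

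PDE4 enzymes hydrolyse the second messenger cAMP, and thereby end signals that reach protein kinase A, Epac and the CREB family of transcription factors. Each PDE4 gene makes long and short protein forms from alternative promoters, which share the catalytic domain and differ in their N-terminal regulatory regions. In immune cells cAMP restrains the production of TNF and other inflammatory mediators, PDE4B is the family member best known for its part in responses to LPS, and PDE4 inhibitors are used as anti-inflammatory drugs.

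The 9 TSSs lie on the plus strand of mm9, and 7 of them coincide with a transcript start in the GENCODE annotation of that build. Pde4a P1 (NM_183408, chr9:20970158) is the first base of its gene, and Pde4a P2 (NM_019798, chr9:21001149) lies 30991 bp downstream in an intron of 3 longer transcripts. Pde4b P1 (NM_001177983, chr4:101927347) and P2 (NM_019840, chr4:101927544) are 197 bp apart, so that most of their windows is the same DNA. Pde4b P3 (NM_001177980, chr4:102242665) follows 315121 bp further on, P4 (NM_001177982, chr4:102260163) 17498 bp after it, and P5 (chr4:102262448) 2285 bp after P4. P3 lies in an intron of 3 transcripts and P4 in an intron of 5, and P5 is in an intron of 6 transcripts and an exon of another. Pde4c (NM_201607, chr8:73247963) is in an intron of 1 transcript, and Pde4d (NM_011056, chr13:109444371) in exons of 2.

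The sequence before Pde4a P1 set it apart from the rest of the family. It was the only one of the 9 promoters that met the criteria of a CpG island, a class that held 48% of all promoters (56.2% of those with high coverage). Within 200 bp of its TSS the GC content was 73.3% and the observed to expected CpG ratio 0.77, against GC contents of 42.1% to 58.4% and ratios of 0.10 to 0.53 at the other 8. Of the 250 bases before the TSS, Pde4a P1 holds 22 CpGs, Pde4b P1 holds 7, Pde4b P5 holds 3 (1 of them in the stretch shown) and the others 0 to 2, where the median of all promoters is 9. The sequences of the CpG-rich promoter and of the Pde4b promoters P3 and P5, which the S5P comparison below turns on, are shown from mm9 on the plus strand with each CpG in capitals. That of P5 stops 120 bases before its TSS, where an annotated exon of another transcript begins.
Pde4a P1, chr9:20969908-20970157: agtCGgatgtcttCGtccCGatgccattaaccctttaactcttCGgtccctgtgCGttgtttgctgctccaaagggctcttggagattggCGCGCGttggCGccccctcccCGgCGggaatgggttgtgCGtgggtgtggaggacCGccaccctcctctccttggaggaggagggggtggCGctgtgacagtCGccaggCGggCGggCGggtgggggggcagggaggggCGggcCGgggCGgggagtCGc
Pde4b P3, chr4:102242415-102242664: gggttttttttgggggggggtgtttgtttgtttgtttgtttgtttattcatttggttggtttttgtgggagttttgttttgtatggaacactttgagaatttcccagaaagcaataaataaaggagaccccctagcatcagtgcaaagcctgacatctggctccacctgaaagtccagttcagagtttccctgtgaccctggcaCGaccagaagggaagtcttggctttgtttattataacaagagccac
Pde4b P5, chr4:102262198-102262327: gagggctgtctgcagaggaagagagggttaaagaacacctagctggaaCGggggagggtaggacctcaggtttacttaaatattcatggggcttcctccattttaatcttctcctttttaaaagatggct

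Letters known to be bound by factors of the cAMP and inflammatory pathways were then searched. Among the 300 bases from 250 before to 50 after each TSS, the cAMP response element TGACGTCA, its half-site TGACG and the AP-1 site TGANTCA had no match on either strand of any Pde4 promoter. These letters occurred in 2.38%, 23.8% and 7.09% of all promoters, respectively. The consensus of the NF-kB site matched at Pde4b P3 (positions -128 to -119 from the TSS, minus strand) and at Pde4b P4 (-59 to -50, plus strand), and in 9.04% of all promoters. The letters of the TATA box, TATAAA, matched at Pde4b P2 alone (-89 to -84, plus strand) and in 12.7% of all promoters. Whether this match acts as a TATA box was not tested.

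The authors' expression values before stimulation differed among the promoters of Pde4a and among those of Pde4b. They can be compared only within a cell-type, and are given here relative to the mean of all promoters. In fibroblasts Pde4b P4 had the highest value of the family, 0.298 times the mean and above 90.6% of all promoters, followed by Pde4d (0.115), Pde4b P3 (0.0807), Pde4a P1 (0.0275) and Pde4a P2 (0.0224). In DCs the highest was Pde4b P3, at 1.68 times the mean and above 94.0% of promoters, followed by Pde4b P5 (0.26), Pde4d (0.254) and Pde4a P1 (0.0959), while Pde4b P4 was at 0.00108. The order of Pde4b P3 and P4 thus differed between the cell-types. Pde4c, Pde4b P1 and Pde4b P2 were below the active threshold of 0.02 times the mean in both cell-types, and Pde4b P5 was below it in fibroblasts at 0.00581. No error can be given, since each is 1 value per promoter.

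Patterning level was taken as the sum over the window of an occupancy profile weighted by a template, the mean profile over active promoters before stimulation in that cell-type, and is high where nucleosomes flank an empty TSS. Occupancy is the authors' normalised signal relative to the surrounding 1 kb, in bins of 10 bp. The NDR ratio is the mean occupancy from -150 to 0 bp, the nucleosome-depleted region (NDR), over that from -1000 to -500 bp, with 0.1 added to both, so that a lower log2 value means a deeper NDR. Among single libraries mean occupancy was 0.791 to 0.804 for H3K4me1 and 0.962 to 0.975 for pol-II, compared to 1.62 to 1.63 in pooled sets. A level was therefore divided by the library's mean occupancy, and is called a scaled level, wherever these kinds of library were compared. The share of bins with any signal at high-coverage promoters ranged from 63.6% to 78.1% in the 8 single H3K4me1 libraries. In these libraries the noise at 1 promoter is large: across high-coverage promoters the levels of replicates correlated with a Spearman's rho of 0.264 to 0.379, a description across promoters, which are not replicates.

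By its level, Pde4a P1 was patterned in all 4 pooled sets. Its patterning levels were 18.3 in non-stimulated DCs, 18.9 in LPS-treated DCs, 18.1 in non-stimulated fibroblasts and 15.2 in TNF-α-stimulated fibroblasts. These lie above 76.5% to 87.6% of high-coverage promoters, and above the medians of active promoters in the same sets (8.31 to 10.6). Its log2 NDR ratios were -1.50, -1.64, -1.97 and -0.90 in the same order, beside medians of active promoters of -0.95, -1.06, -1.22 and -1.63. After TNF-α its NDR was thus shallower than that median. Its +1 nucleosome peak was found 105 to 135 bp downstream of the TSS. The 8 single H3K4me1 libraries did not give this picture uniformly, with levels of 7.75 and -6.77 in non-stimulated control, 9.24 and -5.63 in TNF-α-stimulated control, 7.96 and -5.24 in non-stimulated BAF-knockdown, and 5.51 and 8.94 in TNF-α-stimulated BAF-knockdown fibroblasts. Replicate 2 was below 0 and replicate 1 above it in 3 of the 4 groups.

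Pde4a P2 had lower levels in the pooled sets, 2.38 and 4.89 in DCs without and with LPS and 11.2 and 7.86 in fibroblasts without and with TNF-α. Its single libraries ranged from -6.27 to 22.5 (mean 3.43 ± 9.52 SD, n = 8), the widest range of the family. The highest value, 22.5, and the value of 0.02 were the replicates of one group, non-stimulated BAF-knockdown fibroblasts.

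None of the 3 well-covered Pde4b promoters was patterned in every pooled set. Pde4b P3 stood at 14.8 in fibroblasts before and 1.43 after TNF-α, and at -1.87 in DCs before and 2.03 after LPS. In the single H3K4me1 libraries, however, it was at 8.63 and 1.43 in non-stimulated control and at 0.87 and 7.83 in stimulated control fibroblasts. The corresponding values were 4.31 and 4.34 without and 4.85 and 3.54 with TNF-α in BAF-knockdown cells, so that all 8 were above 0 (mean 4.48 ± 2.72 SD) and the stimulated and non-stimulated libraries overlapped. Pde4b P4, which had the highest coverage score of the family (433.5) and the highest fibroblast expression, had levels of 0.75 and -3.88 in DCs without and with LPS and of -3.36 and -8.02 in fibroblasts without and with TNF-α. Its log2 NDR ratios in these sets were -0.48, -0.08, -0.33 and -0.34. A level below the median of all high-coverage promoters (5.59 to 6.12 in pooled sets) thus accompanied the largest expression value of the family in fibroblasts.

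Pde4b P5 was at -1.34 and -5.64 in DCs without and with LPS and at 5.65 and 0.26 in fibroblasts without and with TNF-α. In control fibroblasts its levels were 0.35 and -3.30 without and 1.72 and -4.78 with TNF-α, and in BAF-knockdown fibroblasts -1.11 and -4.41 without and 5.30 and -3.16 with it. The 8 libraries averaged -1.17 ± 3.48 (SD), and all but 1 were below the median of their library.

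Pde4c, which had nearly no expression in either cell-type, was at 7.06 and 4.51 in DCs and at -1.33 and 9.11 in fibroblasts (non-stimulated, then stimulated). The single libraries gave 1.66 ± 5.42 (SD, n = 8). The 3 promoters below the coverage minimum also varied between the pooled sets. Pde4d ranged there from -6.07 in TNF-α-stimulated fibroblasts to 21.0 in LPS-treated DCs, and Pde4b P2 from 0.05 in TNF-α-stimulated fibroblasts to 22.0 in non-stimulated DCs. Pde4b P1 was at -14.2 in pooled fibroblasts before and 6.72 after TNF-α, while the overlapping P2 was at 3.33 and 0.05.

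**Figure D1:**
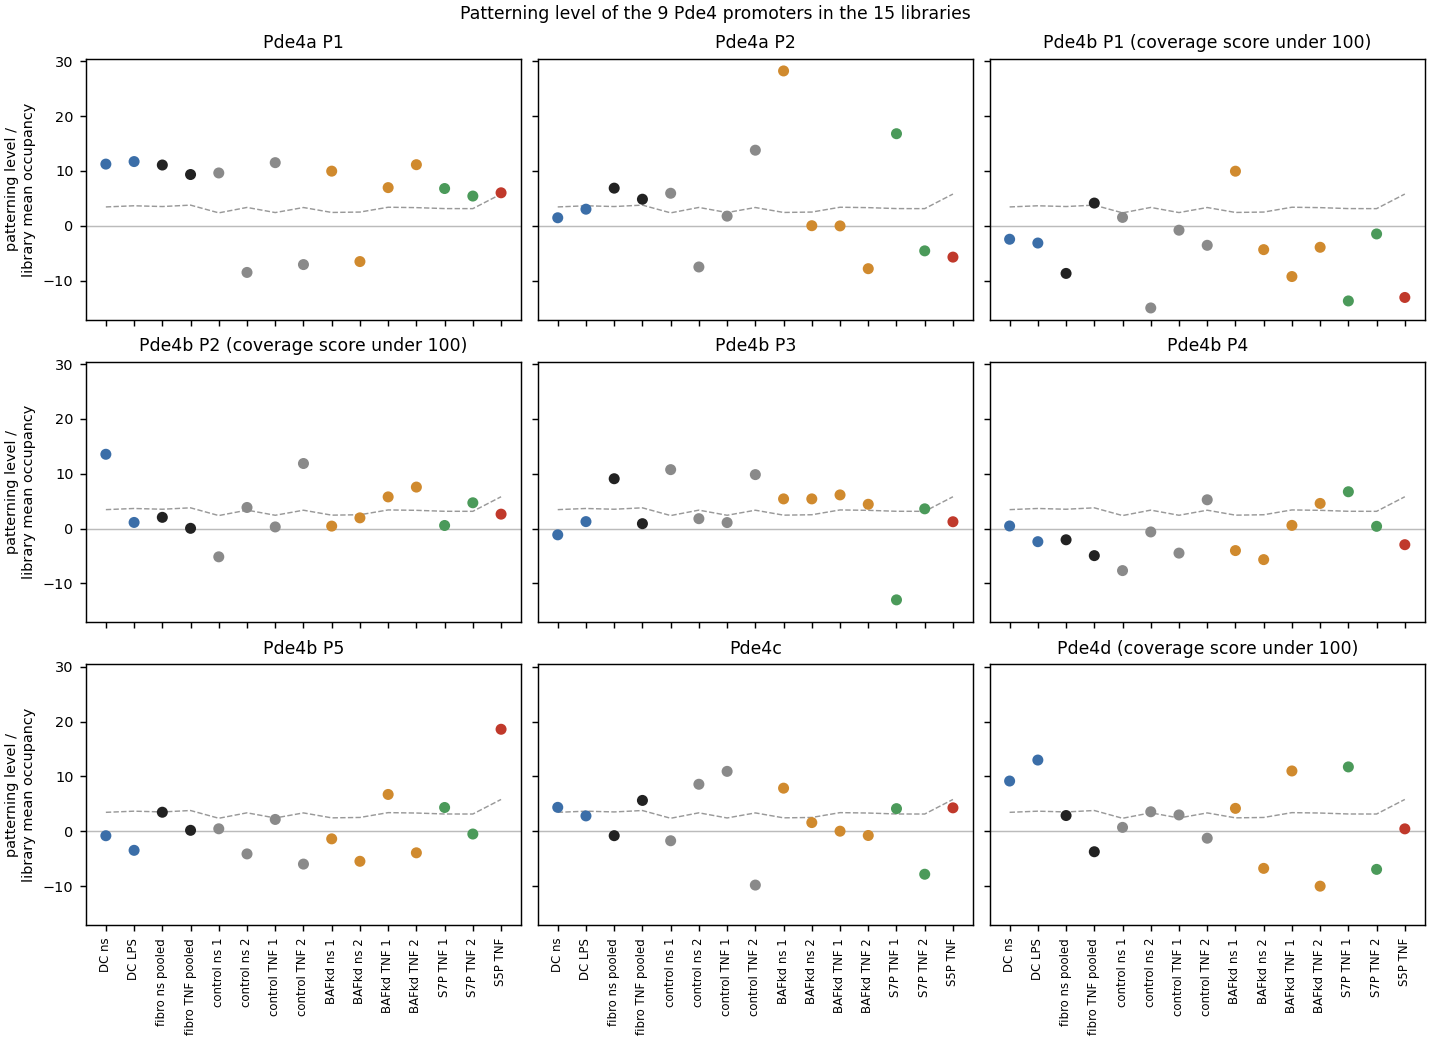
Patterning level divided by library mean occupancy (vertical axes) of each Pde4 promoter in each of the 15 libraries (horizontal axes; ns, non-stimulated), with 1 point per library and the median of high-coverage promoters as a dashed line. Blue marks DCs, black pooled fibroblasts, grey control, orange BAF-knockdown, green S7P and red S5P libraries. Pde4a P1 lies between 9.35 and 11.7 in the 4 pooled sets, and Pde4b P5 at 18.6 in S5P lies above its other 14 libraries.

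To see how far single libraries can be relied upon at these promoters, replicates were compared. At the 6 high-coverage Pde4 promoters there are 30 pairs of replicates (5 groups with 2 libraries), of which 15 had levels of opposite sign, compared to 35.5% of the pairs over all high-coverage promoters. The median difference between replicates was 6.73 in level at the Pde4 promoters and 4.63 over all. The NDR window was empty in 9 of the 135 values (9 promoters in 15 libraries), and 8 of these were from libraries that were not pooled. There the log2 NDR ratio is set by the added 0.1, at -3.84 to -3.07.

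The question whether stimulation changes nucleosome positions at these promoters was addressed first in the 8 single H3K4me1 libraries, fitted together with limma. Median levels of high-coverage promoters were 1.90 and 2.67 in the non-stimulated and 1.94 and 2.66 in the stimulated control libraries. In BAF-knockdown libraries they were 1.94 and 2.01 without and 2.68 and 2.66 with TNF-α. Within knockdown cells this library difference cannot be told apart from stimulation. Its part in the estimates below, including the interaction, was not tested. No promoter among the 13559 (0%) passed an adjusted p of 0.05 for TNF-α, either in patterning level (770 had an unadjusted p under 0.05) or in NDR ratio (780), and neither did any of the 6 Pde4 promoters. The largest estimated rise in level was at Pde4b P4, by 4.78 (SE 2.40, 95% interval -0.89 to 10.46, limma adjusted p = 0.87). Its levels were -6.17, -0.50, -3.21 and -4.56 in the non-stimulated libraries and -3.60, 4.17, 0.45 and 3.67 in the stimulated libraries, and these ranges overlap. At Pde4b P5 the estimate was 1.89 (interval -4.51 to 8.28, adjusted p = 0.957), and at Pde4b P3 -0.40 (interval -5.94 to 5.13, adjusted p = 0.994). At Pde4a P1 it was 3.59 (interval -8.18 to 15.4), at Pde4a P2 -3.81 (interval -19.7 to 12.1) and at Pde4c -3.16 (interval -12.4 to 6.05).

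In NDR ratio the smallest unadjusted p for TNF-α at a Pde4 promoter was that of Pde4c. Its log2 ratios were -0.06, -1.17, -1.19 and -1.52 in the non-stimulated libraries and -0.15, 1.06, 0.36 and -0.04 in the stimulated libraries. The ranges overlapped, since the highest non-stimulated value was above the lowest stimulated value. The estimated difference was 1.29 (SE 0.42, interval 0.28 to 2.30, limma unadjusted p = 0.0195 and adjusted p = 0.79), so it did not pass the correction over all promoters. The pooled fibroblast sets gave a difference of -0.16 for the same promoter. For the other 5 the estimates lay between -0.78 (Pde4b P4) and 1.84 (Pde4a P2), and every interval included 0.

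The pooled sets, without replicates, gave the same comparison by size alone. A difference of 1 or more in log2 NDR ratio was taken as large, a size that 23.4% of high-coverage promoters reached downwards and 15.8% upwards between TNF-α-stimulated and non-stimulated fibroblasts. Of the 6 Pde4 promoters, 1 reached it, Pde4a P1, whose ratio was higher by 1.07 after TNF-α (-0.90 against -1.97). Between LPS-treated and non-stimulated DCs the background was 21% downwards and 14.8% upwards, and 0 of the 6 Pde4 promoters reached it, with differences from -0.36 at Pde4a P2 to 0.40 at Pde4b P4. Between non-stimulated DCs and fibroblasts it was 17.2% lower in DCs and 22% higher, and again 0 of 6 reached it. With an NDR window from -200 to 50 bp, 1 of 6 did, since the difference at Pde4c went from -0.15 to -1.003. That value is barely past the size of 1 taken as large. The shares of 17.2% and 22% do not belong to the wider window, so they are no background for that count. Counts over all promoters with the wider window are given in the last section. Without the widening, the difference at Pde4b P3 was 0.85, and its level was lower in DCs by 16.7. Pde4b P2, below the coverage minimum, was past 1 in all 3 comparisons. Its NDR window was empty in non-stimulated DCs, which enter the LPS and cell-type comparisons. Between the pooled fibroblast sets its difference was 1.001, and -0.39 with the wider window.

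Whether the BAF complex affects positions at these promoters was addressed by the knockdown. Neither patterning level (792 unadjusted p under 0.05) nor NDR ratio (712) gave a call among all promoters (0% in both), and no Pde4 promoter was called. The differences between BAF-knockdown and control libraries at the Pde4b promoters were small next to their errors: -0.43 (SE 2.34) at P3, 0.61 (SE 2.40) at P4 and 0.66 (SE 2.70) at P5 in level. At Pde4a P1 the estimate was 3.15 (interval -8.62 to 14.9), at Pde4a P2 1.27 (interval -14.6 to 17.2) and at Pde4c 0.14 (interval -9.07 to 9.35). In log2 NDR ratio the estimates ranged from -0.52 at Pde4c (SE 0.42) to 0.95 at Pde4b P3 (SE 1.04), with limma adjusted p-values of 0.922 or more. The test of whether TNF-α acted differently in BAF-knockdown cells had no calls either (0% in level and in NDR ratio, with 766 and 828 unadjusted p under 0.05). At the Pde4 promoters the limma adjusted p-values of this interaction were 0.86 or more. These intervals are wide, and a missed threshold does not show that values are alike.

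**Figure D2:**
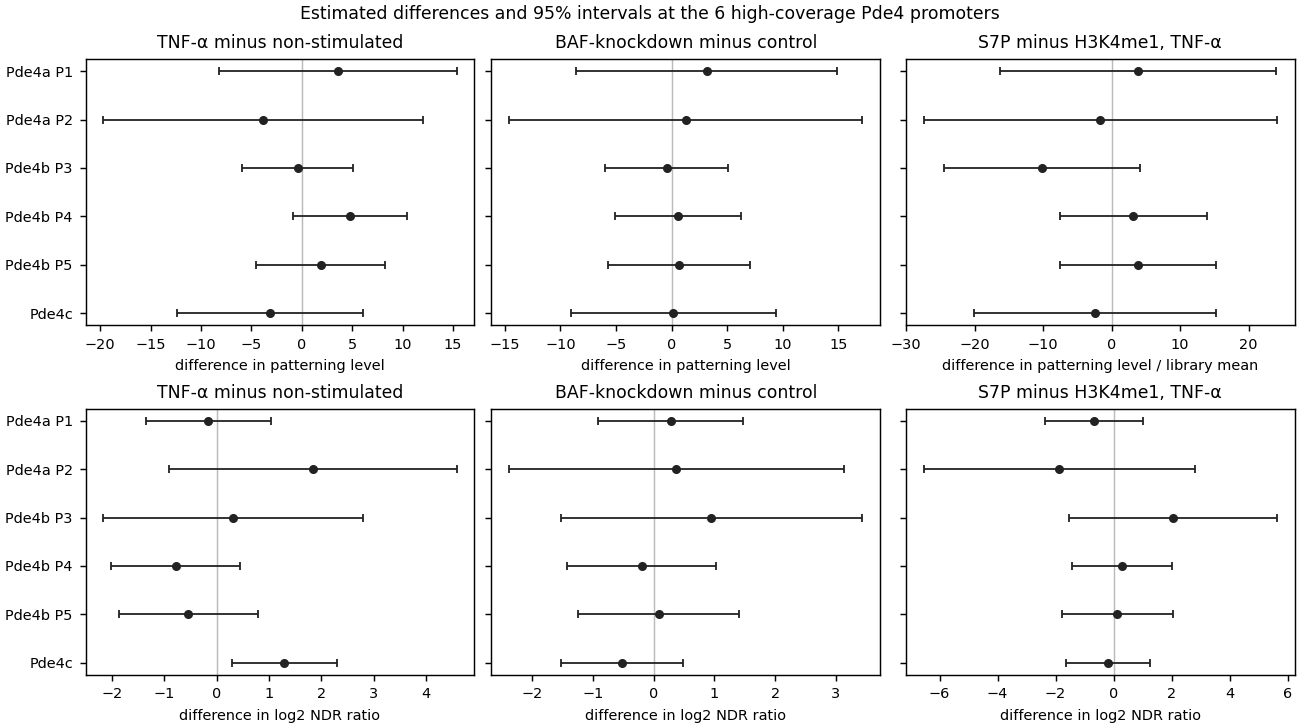
Estimated differences (points) and 95% intervals (bars) from limma at the 6 high-coverage Pde4 promoters, in patterning level (top row) and log2 NDR ratio (bottom row), for TNF-α minus non-stimulated, BAF-knockdown minus control and S7P minus H3K4me1. Of the intervals, only that of Pde4c for TNF-α in NDR ratio (0.28 to 2.30) excludes 0, and it did not pass the adjustment over 13559 promoters.

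The pol-II libraries were then compared with H3K4me1 in stimulated fibroblasts, beginning with S7P, which had 2 replicates and did not enter the choice of Pde4b. The pol-II libraries have paired-end and the H3K4me1 libraries single-end reads. S7P was set against the stimulated control libraries of the knockdown experiment, which the study lists apart from the S7P samples. Antibody, read type and set of cells therefore cannot be told apart. There were no calls among all promoters (0% in scaled level, with 1062 unadjusted p under 0.05, and 0% in NDR ratio, with 1237). At Pde4b P5 the scaled levels were 4.32 and -0.51 in S7P and 2.14 and -6.00 in stimulated control H3K4me1 libraries, which overlap. The estimated difference was 3.83 (SE 4.82, 95% interval -7.51 to 15.2, limma adjusted p = 0.9). In log2 NDR ratio it was 0.13 (interval -1.79 to 2.04, adjusted p = 0.986), from values of -0.80 and 0.03 in S7P and -1.35 and 0.32 in H3K4me1. Across the family these estimates ranged from -1.87 at Pde4a P2 (SE 1.97) to 2.06 at Pde4b P3 (SE 1.51). Their limma adjusted p-values were 0.715 or more. Pde4b P3 had the largest difference in scaled level, -10.2 (SE 6.06, interval -24.4 to 4.08, adjusted p = 0.756), and its S7P replicates were far apart at -13.0 and 3.59. Leaving out 1 library moved this estimate to -1.87 (without S7P replicate 1), -18.5 (without S7P replicate 2) or -5.80 (without stimulated control replicate 2). Signal filled 32.5% of the bins at P3 in S7P replicate 1 and 58.5% in replicate 2, and the part of this in the value was not tested. For Pde4b P4 (3.18, SE 4.54), Pde4a P1 (3.89, SE 8.58), Pde4a P2 (-1.66, SE 10.97) and Pde4c (-2.41, SE 7.52) the differences were smaller than their errors.

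Pde4b was selected on its rise at S5P alleles, which in scaled level was largest at Pde4b P5. Its scaled level was 18.6, compared to 0.16 in pooled TNF-α-stimulated fibroblasts and -6.00 to 6.70 in the other 14 libraries. The difference of 18.4 was above that of 97.8% of high-coverage promoters, whose median difference was 1.77. The log2 NDR ratio was -2.97 against -0.31. In the S5P profile the nearest peaks of occupancy were 225 bp upstream and 95 bp downstream of the TSS, with no signal over the 170 bp that span the TSS. In the S7P libraries the stretch without signal over the TSS was 260 bp in replicate 1 and 0 bp in replicate 2. In each H3K4me1 library at least 1 of the bins that adjoin the TSS had signal.

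Signal was sparse at Pde4b in the S5P library. Of the 200 bins around P5, 45% had any signal, against 97% in the pooled TNF-α-stimulated set, and 9.35% of high-coverage promoters had fewer filled bins in S5P. The shares at Pde4b P1 to P4 were 25.5%, 22%, 23% and 34.5%, and at Pde4d 36%, whereas Pde4c had 90.5%, Pde4a P2 84.5% and Pde4a P1 100%. Over all high-coverage promoters the S5P library had signal in 81.2% of bins. Occupancy at P5 was in 7 separate stretches, with a longest gap of 500 bp that does not include the TSS. When the NDR window was widened to -200 to 50 bp, the difference in log2 NDR ratio at P5 went from -2.65 to -0.83. Among the 11.2% of high-coverage promoters with under 50% of bins filled in S5P, 7.04% had a difference in scaled level as large as that of P5, compared to 1.595% of the others. The part of this sparse signal in the value of P5 was not tested.

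The values of the neighbouring Pde4b promoters are given beside those of P5. At P3 the log2 NDR ratio was 2.32 in S5P and -0.78 in the pooled stimulated set, and its scaled levels were 1.23 and 0.88. The S5P flank of P3 from -1000 to -500 bp was empty, so that the added 0.1 sets its denominator, and no signal was found over 630 bp that span the TSS. P4, 2285 bp from P5, had scaled levels of -2.95 in S5P and -4.95 in the pooled set, and log2 NDR ratios of 0.14 and -0.34. This difference of 0.48 changed sign to -0.64 with the window from -200 to 50 bp. Across the family, 1 of the 6 high-coverage promoters was lower by 1 or more in log2 NDR ratio in S5P (Pde4b P5, where 19.4% of all were). Another 2 were higher by 1 or more (Pde4b P3 and Pde4a P2, where 29.1% of all were). With the wider window P5 did not reach this size (-0.83), and the share of 19.4% is no background for that window. Pde4a P1, the promoter whose window was fully covered in S5P, had a scaled level of 6.02 and a log2 NDR ratio of -0.44, compared to 9.35 and -0.90 in the pooled stimulated set.

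**Figure D3:**
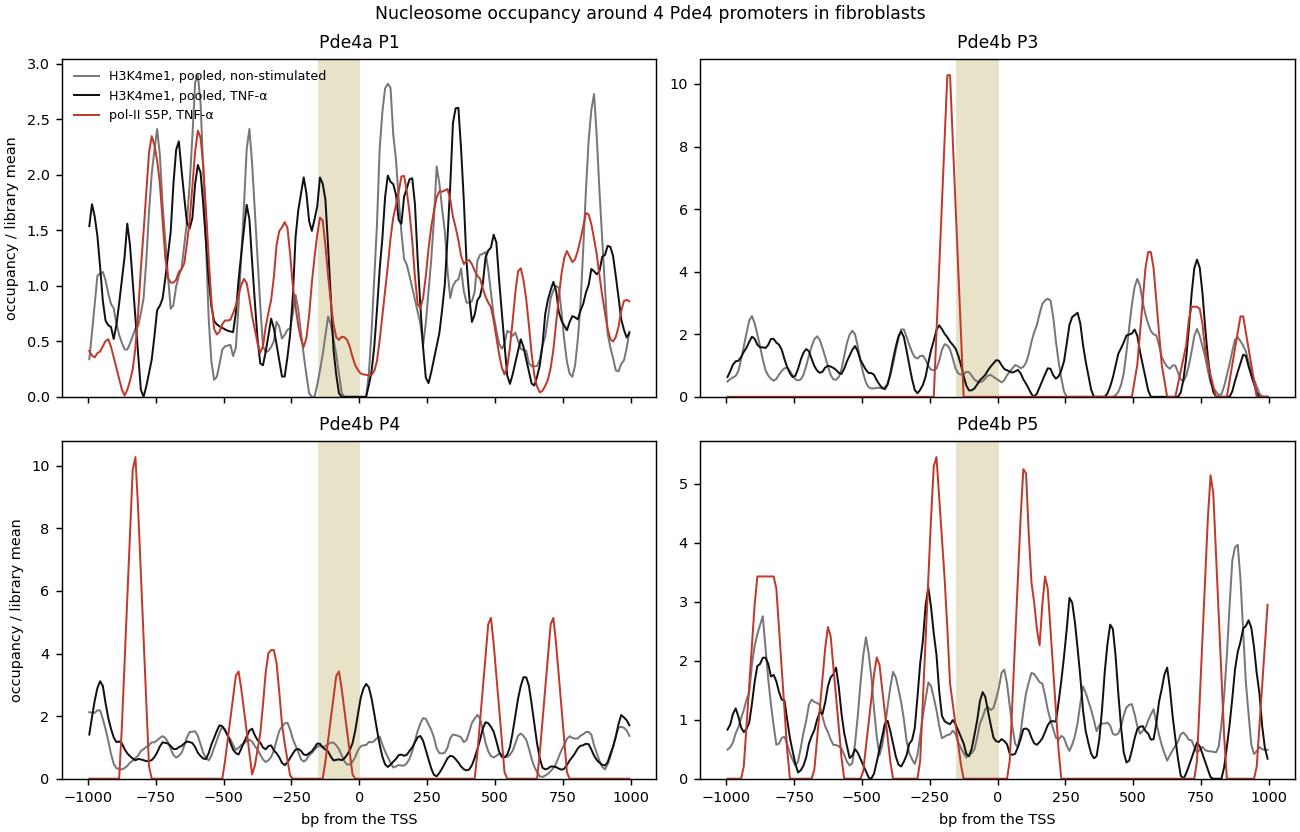
Nucleosome occupancy divided by the library mean (vertical axes, scaled per panel) against distance from the TSS in bp (horizontal axes) at 4 Pde4 promoters, for pooled non-stimulated (grey) and TNF-α-stimulated (black) H3K4me1 sets and the S5P library (red), with the region from -150 to 0 bp shaded. At Pde4a P1 all 3 lines are low at the TSS, and at Pde4b P5 the S5P line peaks at -225 and 95 bp with none between. The S5P line is at 0 over most of the window at Pde4b P3, P4 and P5, where 23%, 34.5% and 45% of bins had signal.

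**Figure D4:**
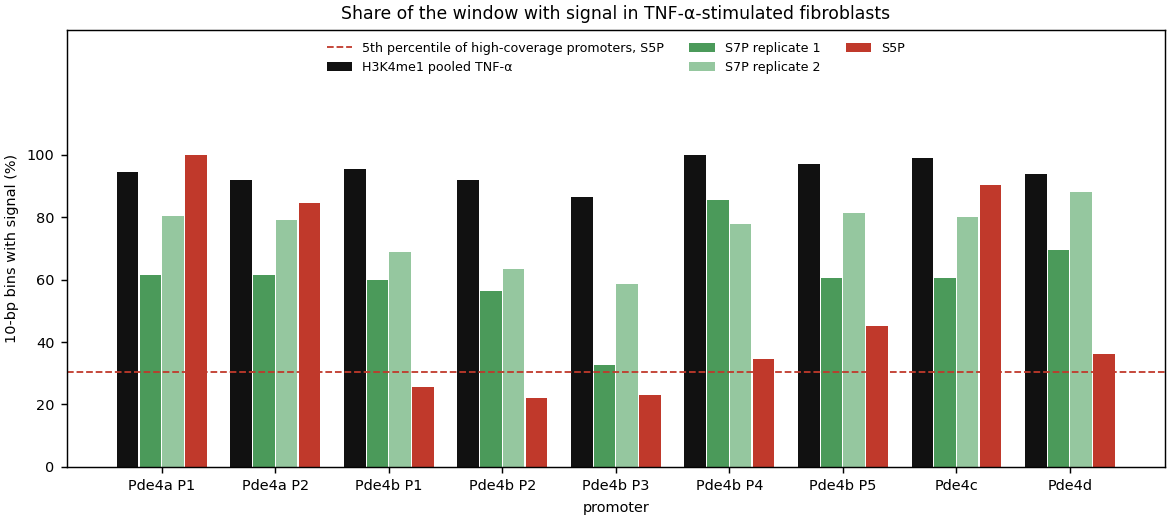
Share of the 200 bins of 10 bp with any signal (vertical axis, percent) at each Pde4 promoter in TNF-α-stimulated fibroblasts, with 1 bar per library or pooled set and the 5th percentile of high-coverage promoters in S5P as a dashed line. The S5P bars of the 5 Pde4b promoters lie between 22% and 45%, and those of Pde4a P1, Pde4a P2 and Pde4c between 84.5% and 100%.

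The promoters of other genes whose scaled levels followed that of Pde4b P5 most closely over the 15 libraries were those of Tespa1 (NM_183264, Pearson's r = 0.875), Camk1 (NM_133926, r = 0.837) and Mir181c (NR_029821, r = 0.827). All 3 had their highest value in S5P (30.1, 14.5 and 9.07), a library that entered the correlations by which they were chosen. Without this library the correlations were 0.596, 0.703 and 0.647. They are a description over libraries most of which share the H3K4me1 antibody, and each r was lower without the S5P value.

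The rest of the cAMP pathway was described by 6 lists of genes, of which no promoter was called in any of the comparisons. The median patterning level in pooled TNF-α-stimulated fibroblasts was -1.63 over the 10 tested promoters of adenylyl cyclases, which make cAMP, against 6.12 over all high-coverage promoters. Adcy7 held both the highest (NM_001037723, 16.7) and the lowest (NM_007406, -21.6) level of that list, from its alternative promoters. In non-stimulated DCs the same promoters were at 6.425 and 6.259. Gs-coupled receptors and Gs had a median of 2.83 over 12 promoters. Other phosphodiesterases had a median of 1.04 over 14 promoters, from Pde2a (-24.8) to Pde9a (20.5). The effector lists had medians of 6.94 for 13 promoters of protein kinase A subunits and inhibitors (Pkig -10.1 to Prkacb 34.1) and 11.3 for 7 promoters of Epac and the CREB family (Crem -11.3 to Rapgef4 28.6). PDE4 partners and anchors had 7.88 over 7 promoters, from Arrb1 (-3.15) to Akap1 (16.9). These highest and lowest levels come from a pooled set without replicates. In pooled non-stimulated fibroblasts the sign was the other way for Pde2a (14.7), Prkacb (-13.6) and Pkig (9.54). It was the same for Pde9a, Rapgef4, Crem, Arrb1, Akap1 and both Adcy7 promoters. In non-stimulated DCs the medians of the 6 lists lay between 4.66 and 11.8, where that of all promoters was 5.59. The median TNF-α differences of the lists in the single libraries were -1.66 to -0.09 in level, beside 0.23 over all promoters.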

How the data were processed

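Occupancies around 25881 annotated TSSs were used from 15 libraries. The authors aligned reads to mm9 (the submitters' processing notes name Bowtie2 and bedtools), kept fragments of nucleosome size, counted them in 10 bp bins, divided by the surrounding 1 kb and averaged neighbouring bins. The study gives a range of sequencing depths, but the deposited signal holds no counts per promoter, so the share of bins with signal is given and no interval for counting error. The authors' annotation also holds a coverage score, a score for expression before stimulation in each cell-type (from RNA-seq, which the study gives in FPKM, although the file header names no unit) and the authors' own differences in expression upon stimulation, which were not used. Inducible promoters therefore stayed among the active promoters (expression above 0.02 times the mean) that made the template. RefSeq identifiers were matched to symbols for 98.1% of promoters.

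Each promoter above the coverage minimum of 100 was fitted with limma 3.58.1 in R 4.3.3. The 8 single H3K4me1 libraries were fitted on stimulation and knockdown, with their interaction in a separate model, and 10 libraries by group for S7P. The Benjamini-Hochberg adjustment covered all 13559 promoters, with calls at 0.05, and the tests are two-sided. The code was tested on simulated data. Replicates are separate libraries of a group, and p-values set a difference against the spread that the fitted model leaves between libraries. S5P and the pooled sets have no replicates and no test. No pair of libraries was identical. CpG islands needed a GC content above 50% and a CpG ratio above 0.6 within 200 bp of the TSS. Peaks of the lowest 20% by prominence were left out. All Pde4 rows were named; of each pathway list, the promoters with the highest and lowest level in stimulated pooled fibroblasts (those of 1 list are not reported here); and the 3 promoters most correlated with the Pde4b promoter of the largest S5P difference. Members, lists and tests were chosen with earlier results of these data known. Alternatives were library scaling, the square root of occupancy, the DC template, another pseudocount (0.5) and NDR window, other coverage minimums (none, or 200), an intensity trend, a replicate block and leaving out each library.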

Additional observations from a re-analysis of the deposited data

How the results depend on the processing

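For TNF-α, the knockdown and S7P, no Pde4 promoter passed an adjusted p of 0.05 in limma under any of 534 alternative values, of which the lowest was 0.394. These values do not cover the interaction at the Pde4 promoters. The direction, however, was unstable. Of 36 estimates, 25 changed sign when 1 library was left out. For the TNF-α difference in level these ranges were Pde4b P3 (-1.79 to 1.09), Pde4b P5 (-0.20 to 3.58) and Pde4a P2 (-8.08 to 2.82). For the knockdown difference in level these ranges were Pde4b P3 (-1.88 to 1.06), Pde4b P4 (-1.18 to 1.98), Pde4b P5 (-1.43 to 1.96), Pde4c (-2.99 to 3.64), Pde4a P1 (-0.28 to 6.51) and Pde4a P2 (-5.36 to 5.31). For the S7P difference in scaled level these ranges were Pde4b P4 (-1.69 to 8.04), Pde4b P5 (-0.24 to 7.90), Pde4c (-12.8 to 7.96), Pde4a P1 (-5.41 to 13.2) and Pde4a P2 (-12.3 to 9.02). For the TNF-α difference in log2 NDR ratio these ranges were Pde4b P3 (-0.42 to 1.14) and Pde4a P1 (-0.56 to 0.12). For the knockdown difference in log2 NDR ratio these ranges were Pde4b P4 (-0.50 to 0.24), Pde4b P5 (-0.31 to 0.36), Pde4a P1 (-0.0015 to 0.68) and Pde4a P2 (-0.36 to 1.23). For the S7P difference in log2 NDR ratio these ranges were Pde4b P4 (-0.12 to 0.72), Pde4b P5 (-0.70 to 0.96), Pde4c (-0.80 to 0.40), Pde4a P1 (-1.44 to 0.10) and Pde4a P2 (-4.00 to 0.26). Each left-out library leaves 1 sample in its group, which is assumed to vary like the others. On the square root of occupancy Pde4a P2 changed sign for the knockdown (-0.38) and for S7P (1.74) in level. With the NDR window from -200 to 50 bp, the sign changed in log2 NDR ratio at Pde4b P3 for TNF-α (-0.40), at Pde4b P4 (0.028) and Pde4a P1 (-0.058) for the knockdown, and at Pde4c for S7P (0.25). Of the differences without a test, the same window changed the sign at Pde4b P4 for S5P (-0.64), at Pde4a P1 (0.27), Pde4b P5 (-0.078) and Pde4c (0.74) for LPS, at Pde4b P2 (-0.39) and P4 (0.37) between pooled fibroblast sets, and at Pde4d between cell-types (0.00068). The cause of these changes was not tested.

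Over all promoters, the wider window gave 3 calls for TNF-α and 1 for the interaction in NDR ratio. Without a coverage minimum there were 3 calls for TNF-α and 46 for S7P in NDR ratio, with the intensity trend 1 for S7P, and with a coverage score above 200 there was 1 for the knockdown in level. Leaving out 1 library gave 0 to 2 calls for TNF-α in NDR ratio. Under the wider window 1858 promoters were lower and 1264 higher by 1 or more between DC sets, 1422 higher between fibroblast sets, and 1474 lower and 1920 higher between cell-types. With the replicate block there were 0 calls in each of the 8 tests and none at a Pde4 promoter. Deviations of libraries with the same number correlated at -0.018 to 0.028, and the labels do not give whether a number marks a shared culture or day, so the libraries were not treated as pairs. Of 108 values without a test, 16 moved. The files hold no counts per promoter, and single libraries limit every value at 1 promoter.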
